A study of Sus scrofa with 12 samples.

Results

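The genes described are 10 genes of muscle protein breakdown, chosen by symbol. They are the ubiquitin ligases FBXO32, TRIM63 and FBXO40, the transcription factors FOXO1 and FOXO3, and the autophagy genes ULK1, SQSTM1, MAP1LC3B, GABARAPL1 and BNIP3. In the gene counts, 9 of the 10 listed symbols belonged to a pig Ensembl gene with a row among 25880 genes. No row carried the symbol BNIP3, which is only named here. All 9 genes passed the filter on low counts, which 13373 genes passed. The rule that picks them uses symbols only, but the list was drawn up with earlier results of these data known.

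The 12 animals were castrated male Iberian pigs that were fattened free-range on acorns and grass. The High MB group held 6 pigs with a high breeding value for myoglobin, the oxygen-binding protein that gives meat its red colour, and the Low MB group held 6 pigs with a low value. Muscle myoglobin content was 2.38 to 2.56 mg/g in High MB pigs and 1.23 to 1.58 mg/g in Low MB pigs. RNA-seq was carried out on the longissimus dorsi, a muscle of the back, after slaughter, with 1 library per pig, so each value below stands for 1 animal. The groups were formed on breeding value within 1 breed and not by a change to a single gene.

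Muscle protein is degraded by several routes. In the best studied, ubiquitin ligases attach ubiquitin to proteins, which the proteasome then destroys. FBXO32 (atrogin-1) and TRIM63 (MuRF1) are the ligases best known to rise in muscle wasting. In autophagy a membrane closes around cell contents and delivers them to the lysosome, with ULK1 as the starting kinase, SQSTM1 (p62) as a cargo receptor and MAP1LC3B and GABARAPL1 as membrane-bound proteins of the ATG8 family. FOXO factors are held out of the nucleus by insulin and AKT signalling and, when free to enter it, can switch on genes of both kinds.

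The windows upstream of FOXO3 and TRIM63 are shown because they hold short motifs known from gene regulation. Each covers the 300 bases before the RefSeq gene start in the Sscrofa11.1 genome and is read 5′ to 3′ on the gene's own strand. The FOXO3 window lies at chr1:74626373-74626672 on the plus strand and the TRIM63 window at chr6:83507472-83507771 on the minus strand. Capitals mark the FOXO core GTAAACA and the E-box CACGTG in FOXO3, and in TRIM63 the glucocorticoid receptor half-site TGTTCT and the TATA box TATAAA.
FOXO3: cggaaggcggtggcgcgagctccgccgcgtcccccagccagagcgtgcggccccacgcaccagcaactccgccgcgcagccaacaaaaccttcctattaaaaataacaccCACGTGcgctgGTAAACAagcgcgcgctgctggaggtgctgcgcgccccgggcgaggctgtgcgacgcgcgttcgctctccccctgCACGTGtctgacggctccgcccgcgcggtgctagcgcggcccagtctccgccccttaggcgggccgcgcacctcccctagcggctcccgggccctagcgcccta
TRIM63: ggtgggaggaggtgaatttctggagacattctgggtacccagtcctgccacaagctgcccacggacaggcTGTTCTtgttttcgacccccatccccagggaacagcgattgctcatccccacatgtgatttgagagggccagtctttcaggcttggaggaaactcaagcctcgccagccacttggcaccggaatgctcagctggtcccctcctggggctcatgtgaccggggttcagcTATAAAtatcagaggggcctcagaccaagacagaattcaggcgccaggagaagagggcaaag
The FOXO3 window held GTAAACA 179 bases before the start, and CACGTG 190 and 104 bases before it. Of 19550 windows of coding genes of the same length, 2.87% held GTAAACA on either strand and 7.30% held CACGTG. FOXO3 was the single gene of the 9 with GTAAACA in its window, while CACGTG also occurred in FBXO32, 298 bases before its start. In TRIM63, TGTTCT began 230 bases and TATAAA 62 bases before the start. TGTTCT was found in 12.6% of all windows on either strand, and TATAAA in 7.38% on the strand of the gene. The marked letters did not overlap one another. The motifs were picked after the sequences had been read, and a match describes letters and not a bound site.

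Library totals over genes ran from 38914271 to 91318334 counts. A first set of 5, called the deep libraries (High MB 4 and 6, and Low MB 1, 5 and 6), held 59227608 or more, and the other 7, here the standard libraries, held at most 40001432. For the 9 genes and the genes of the pathway lists at the unadjusted limit, fold changes within each set are given too. Of the muscle fibre markers, 4 of 11 had a row (ACTA1, CKM, TNNT3 and DES). Their summed level was 37732 to 85401 CPM in High MB pigs and 64150 to 114590 CPM in Low MB pigs. High MB 2 stood apart from the others, with a TMM factor of 1.21 against 0.891 to 1.03 in the other 11 libraries. CPM is a gene's share of a library's counts on a common scale, and values were normalised by TMM, which scales libraries by the bulk of their genes.

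No gene of the set passed the test between the groups. The edgeR quasi-likelihood test, with the Benjamini-Hochberg adjusted p under 0.10 and the absolute log2 fold change over 0.58 as limits, called 0 of the 9, against 0% of the 13373 genes tested. At an unadjusted p under 0.05 it again passed 0 of the 9, while 8.46% of all genes passed. DESeq2 called 0 of the 9 and 0.201% of its 14417 genes. The smallest edgeR adjusted p of the set was 0.640, and that of all genes was 0.563. Each p-value sets the difference between groups against the spread between these pigs. In the edgeR fit the spread of each gene was moderated with that of all genes tested.

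A lower fitted level in High MB pigs was found for 8 of the 9 genes, with a median log2 fold change of -0.19. Among all genes tested, 53.1% were lower and the median was -0.02. The 9 genes were not independent of one another, as the correlations further on show, so the count of 8 is given without a test. With each pig left out in turn, between 6 and 9 of them were lower. In bulk tissue, fewer cells of a type and less RNA per cell cannot be told apart.

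**Figure D1:**
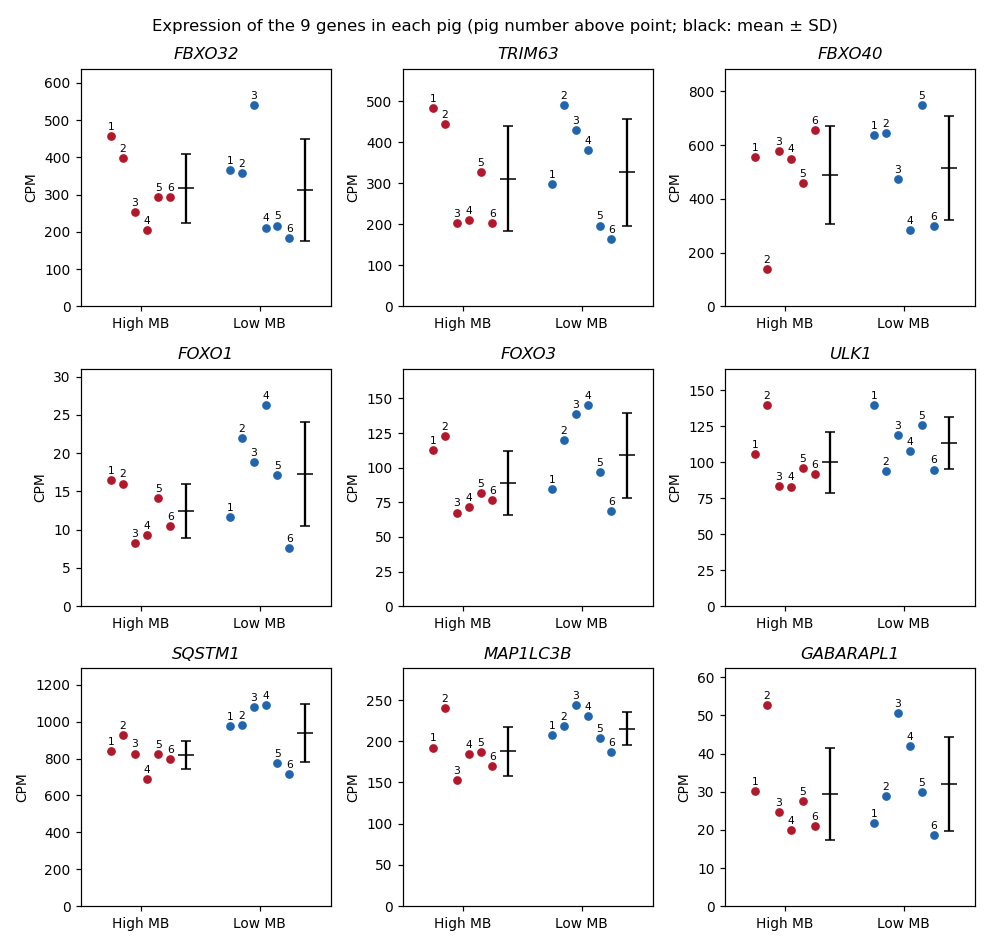
Normalised level (CPM, axis from 0) of the 9 genes, 1 panel per gene and 1 point per pig with its number, High MB in red and Low MB in blue, with the mean and SD of each group in black. The ranges of the groups overlap for every gene, and FBXO40 has the widest span, from 138 to 750 CPM.

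FBXO32 encodes the F-box protein that lends an SCF ubiquitin ligase its target choice in wasting muscle. The gene (ENSSSCG00000005981, chr4:15895875-15925929, plus strand) was at a lowest value of 205 CPM, a median of 293 and a highest of 457 in High MB pigs, and at 182, 288 and 541 in Low MB pigs. Both the lowest and the highest pig belonged to the Low MB group, and the High MB pigs lay between them. The log2 fold change of High MB over Low MB was 0.02 (SE 0.27, 95% interval -0.55 to 0.59, edgeR adjusted p = 0.991), an interval that runs from 0.682-fold to 1.501-fold. The sign turned to -0.07 within the standard libraries and was 0.00 within the deep ones.

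TRIM63 encodes a RING-finger ligase of the sarcomere that marks thick-filament proteins. The gene (ENSSSCG00000027684, chr6:83493200-83507471, minus strand) ranged from 202 through a median of 268 to 482 CPM in High MB pigs and from 165 through 339 to 491 CPM in Low MB pigs. The groups overlapped over nearly the whole range. Between the groups the log2 fold change was -0.07 (SE 0.30, 95% interval -0.71 to 0.57, edgeR adjusted p = 0.968), and it ran from -0.24 to 0.10 as each pig was left out.

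FBXO40 is a muscle F-box protein known to target the insulin receptor substrate IRS1. Its gene (ENSSSCG00000011885, chr13:138881528-138905410, minus strand) was at 138, 552 and 658 CPM (lowest, median and highest) in High MB pigs and at 284, 555 and 750 CPM in Low MB pigs. The single pig at 138 CPM was High MB 2, and the next lowest pigs, Low MB 4 and 6, were at 284 and 300 CPM. The highest pig exceeded the lowest 5.44-fold, the widest span of the set, and 86.1% of all genes had a smaller SD of log2 CPM over the 12 pigs. In the fit the log2 fold change was -0.08 (SE 0.33, 95% interval -0.77 to 0.62, edgeR adjusted p = 0.969), and it turned to 0.14 without High MB 2.

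The value of FBXO40 has a limit. On the opposite strand the gene HCLS1 (ENSSSCG00000011884, chr13:138852387-138883088), which encodes a signalling protein of blood cells, overlaps FBXO40 by 1561 bases. HCLS1 counts were 57.97% to 70.9% of the FBXO40 count in every pig, and both genes' log2 CPM correlated at r = 0.99 over the 12 pigs. The strand setting of the counting is not given in the sources used here, so reads of the shared stretch cannot be told apart between the 2 genes. SQSTM1 likewise overlaps its neighbour MRNIP by 385 bases.

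FOXO1, the FOXO factor most closely tied to insulin signalling in muscle, had the most negative log2 fold change of the set. Its gene (ENSSSCG00000009370, chr11:15317222-15410059, minus strand) was at 8.28, 12.3 and 16.5 CPM (lowest, median and highest) in High MB pigs and at 7.57, 17.99 and 26.3 CPM in Low MB pigs. Of the Low MB pigs, 4 lay above all High MB pigs, but Low MB 6 was the lowest of the 12. High MB minus Low MB gave a log2 fold change of -0.47 (SE 0.27, 95% interval -1.04 to 0.11, edgeR adjusted p = 0.640), and the exact two-sided permutation test of the 6 and 6 pigs gave p = 0.227. It was -0.29 without Low MB 4, the pig with the highest level. Within the standard libraries the log2 fold change was -0.69, and within the deep ones -0.26.

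FOXO3, the factor best known for driving both atrophy ligases and autophagy genes, showed a smaller difference of the same sign. The gene (ENSSSCG00000004387, chr1:74626673-74760323, plus strand) was at 67.6, 79.1 and 123 CPM (lowest, median and highest) in High MB pigs and at 68.5, 108 and 145 CPM in Low MB pigs. Of the Low MB pigs, 2 lay above all High MB pigs and 1 High MB pig lay below all Low MB pigs. On the log2 scale the difference was -0.29 (SE 0.20, 95% interval -0.73 to 0.14, edgeR adjusted p = 0.695), and it was -0.18 without Low MB 4. With the depth class as a covariate, the unadjusted p of FOXO1 was 0.0242 and that of FOXO3 0.0363, with a smallest adjusted p among the 9 genes of 0.474.

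ULK1 is the kinase that starts autophagosome formation and is restrained by mTOR. Its gene (ENSSSCG00000009742, chr14:23423693-23448130, minus strand) was at 83.1, 93.7 and 140 CPM (lowest, median and highest) in High MB pigs and at 94.1, 113 and 140 CPM in Low MB pigs. Of the High MB pigs, 3 lay below all Low MB pigs, while High MB 2 was level with the highest Low MB pig. As fitted, the log2 fold change was -0.19 (SE 0.15, 95% interval -0.50 to 0.13, edgeR adjusted p = 0.745), with -0.28 without High MB 2 and -0.12 without Low MB 1. Among deep libraries alone it was -0.42, and among standard ones -0.0045.

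SQSTM1 binds ubiquitin and the ATG8 proteins and is itself degraded with its cargo. Its gene (ENSSSCG00000014016, chr2:78752768-78763998, minus strand) was at 691, 826 and 929 CPM (lowest, median and highest) in High MB pigs and at 717, 980 and 1092 CPM in Low MB pigs. While 4 Low MB pigs lay above all High MB pigs, the other two, both deep libraries, lay inside the High MB range. The fitted difference on the log2 scale was -0.20 (SE 0.13, 95% interval -0.48 to 0.08, edgeR adjusted p = 0.683), and it was -0.13 without Low MB 4.

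MAP1LC3B encodes LC3B, the protein most often used to follow autophagosomes. Its gene (ENSSSCG00000002655, chr6:1919879-1941069, minus strand) was at 152, 186 and 240 CPM (lowest, median and highest) in High MB pigs and at 187, 213 and 244 CPM in Low MB pigs. A group of 4 High MB pigs lay below all Low MB pigs, and High MB 2 was the second highest of the 12. Its log2 difference between groups was -0.20 (SE 0.12, 95% interval -0.45 to 0.05, edgeR adjusted p = 0.650). Its exact two-sided permutation p of 0.0758 was the smallest of the 9 genes, at 0.587 after adjustment over all genes, and 6 against 6 pigs can reach 0.00216.

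GABARAPL1 belongs to the ATG8 family and is a known FOXO target in muscle. Its gene (ENSSSCG00000000645, chr5:61758127-61767427, minus strand) was at 19.96, 26.1 and 52.8 CPM (lowest, median and highest) in High MB pigs and at 18.7, 29.4 and 50.7 CPM in Low MB pigs. High MB 2 alone lay above all Low MB pigs, and the lowest pig was Low MB 6. The log2 fold change was -0.12 (SE 0.27, 95% interval -0.70 to 0.45, edgeR adjusted p = 0.923). It turned to 0.061 without Low MB 3, and was -0.36 without High MB 2 and -0.24 with the depth class as a covariate.

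**Figure D2:**
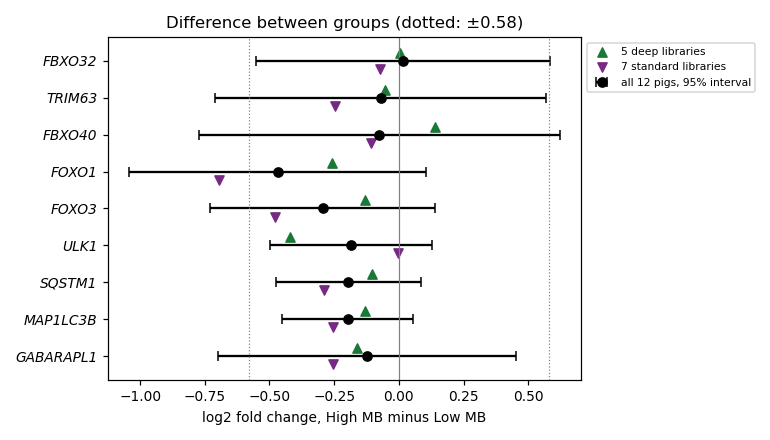
Log2 fold change of High MB minus Low MB for the 9 genes, with all 12 pigs as black points with 95% intervals, the 5 deep libraries as upward triangles and the 7 standard libraries as downward triangles, and dotted lines at 0.58 either way. Every interval crosses 0, and those of MAP1LC3B, SQSTM1 and ULK1 are the narrowest.

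For 7 of the 9 genes the difference between groups was negative in both depth sets, though for ULK1 it was only -0.0045 in the standard libraries. Over all 12 pigs, 53.1% of all genes tested were lower in High MB pigs. In deep and standard libraries in turn the log2 fold change was -0.05 and -0.25 for TRIM63, -0.13 and -0.48 for FOXO3, -0.10 and -0.29 for SQSTM1, -0.13 and -0.25 for MAP1LC3B, and -0.16 and -0.26 for GABARAPL1. FBXO40 was at 0.14 and -0.11, and only FBXO32 and FBXO40 had a value above 0.

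The spread between pigs differed from gene to gene. SQSTM1, MAP1LC3B and ULK1 spanned 1.58-fold, 1.603-fold and 1.68-fold between the lowest and highest pig, and 22.3%, 19.0% and 34.9% of all genes had a smaller SD of log2 CPM. The 3 ligases and FOXO1 spanned 2.97-fold to 5.44-fold, and the share of genes with a smaller SD was 72.7% for FBXO32, 79.1% for TRIM63 and 78.3% for FOXO1. An interval of -0.45 to 0.05 for MAP1LC3B therefore bounds a difference more closely than one of -1.04 to 0.11 for FOXO1.

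Levels between genes were compared per kilobase of RefSeq exon. SQSTM1 was highest at a mean of 401 CPM per kilobase, ahead of TRIM63 at 272, FBXO32 at 245 and MAP1LC3B at 125. FBXO40 followed at 88.8, ULK1 at 21.0, GABARAPL1 at 17.4, FOXO3 at 13.1 and FOXO1 at 2.75 CPM per kilobase. Over the pigs FOXO1 ran from 1.40 to 4.88 CPM per kilobase, below the lowest FOXO3 value of 8.94, while each other neighbouring pair in this order overlapped. The RefSeq exons of FBXO32 and TRIM63 sum to only 1283 and 1171 bases and hold little untranslated sequence, so their levels per kilobase may be too high.

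Library depth moved with several of these genes. TRIM63 had a lowest value of 165, a median of 202 and a highest of 298 CPM in the 5 deep libraries, and 202, 428 and 491 CPM in the 7 standard ones, so 6 of 7 standard libraries lay above every deep one. In the edgeR fit with group and depth class, its log2 difference of deep minus standard was -0.91 (SE 0.21, adjusted p = 0.143). GABARAPL1 was at -0.76 (SE 0.20), FOXO1 at -0.69 (SE 0.22), FOXO3 at -0.54 (SE 0.16) and SQSTM1 at -0.28 (SE 0.11) on the same scale. These 5 of the 9 genes had an unadjusted p under 0.05 for depth, against 13.9% of all genes, and 0 of the 9 passed both limits, against 0% of all genes. FBXO32 (-0.52, SE 0.25), MAP1LC3B (-0.17, SE 0.11), ULK1 (-0.04, SE 0.16) and FBXO40 (0.37, SE 0.32) did not pass the unadjusted limit. The median over all genes was -0.01. The labels give no reason for the 2 depths, and the comparison was added after the values were seen.

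The genes varied together from pig to pig. Of the 36 pairs of the 9 genes, 17 had a Pearson correlation of log2 CPM over the 12 pigs with an adjusted p under 0.05 in a permutation test with adjustment over the 36 pairs, 16 had a Spearman correlation that passed, and 16 passed both. The closest pair was FOXO1 and FOXO3, with r = 0.93 (permutation p = 4e-05, adjusted 0.00144) and rho = 0.92 (adjusted 0.00234). Without the 2 pigs farthest from the FOXO1 median r was 0.90, and within the 7 standard libraries it was also 0.90. Points share a library and its normalisation.

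FOXO3 also correlated with TRIM63, SQSTM1 and the 2 ATG8 genes of the set. The ATG8 family genes outside the set did not follow it as closely, with r = -0.16 for MAP1LC3A, 0.24 for GABARAP and 0.34 for GABARAPL2. Of 13 further genes of ATG8 conjugation and the ATG8 family, 0 reached an r of 0.7 with FOXO3. FOXO3 and GABARAPL1 had r = 0.87 (permutation, adjusted p = 0.00312) and rho = 0.87 (adjusted 0.00672), with r = 0.80 without the 2 farthest pigs. For FOXO3 and MAP1LC3B r was 0.86 (permutation, adjusted p = 0.00312) and rho 0.90 (adjusted 0.00234), and r was 0.80 without the 2 farthest pigs. For TRIM63 and FOXO3 r was 0.83 (permutation, adjusted p = 0.0179) and rho 0.73 (adjusted 0.0297), and r was 0.87 without the 2 farthest. FOXO3 and SQSTM1 gave r = 0.81 (permutation, adjusted p = 0.0179) and rho = 0.79 (adjusted 0.0240), and r = 0.65 without the 2 farthest. All 15 pairs among FOXO1, FOXO3, TRIM63, SQSTM1, MAP1LC3B and GABARAPL1 passed by Pearson (r from 0.68 to 0.93), a grouping read from the values and therefore given as a description. On deviations from the means of the depth classes, 9 of these 15 passed (r from 0.40 to 0.90).

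The 2 atrophy ligases correlated with each other. FBXO32 and TRIM63 had r = 0.76 (permutation, adjusted p = 0.0222) and rho = 0.72 (adjusted 0.0318), and r = 0.68 without the 2 farthest pigs. FBXO32 did not pass with either FOXO factor, with r = 0.39 for FOXO1 (permutation, adjusted p = 0.251) and 0.53 for FOXO3 (adjusted 0.122). For FBXO32 and FOXO3 r was 0.27 without the 2 farthest pigs, 0.34 within the standard libraries and 0.80 without High MB 2 and Low MB 4, so its size depended on which pigs were included. ULK1 passed with MAP1LC3B (r = 0.71, permutation, adjusted p = 0.0257, rho = 0.74, adjusted 0.0297) and with no other gene. Its r with MAP1LC3B was 0.90 in High MB pigs and 0.16 in Low MB pigs, a difference that was not tested.

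FBXO40 showed another pattern. All 8 of its Pearson correlations were negative, from -0.53 with GABARAPL1 to -0.005 with FBXO32, and 0 of 8 passed. Without High MB 2 and Low MB 4 the 8 values ran from 0.01 to 0.41, so the negative signs rested on those pigs.

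**Figure D3:**
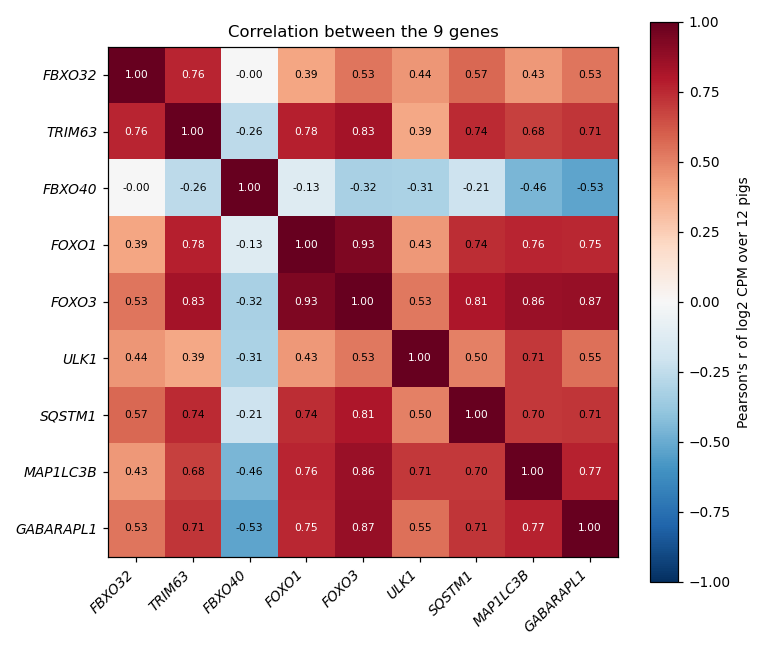
Pearson correlation of log2 CPM over the 12 pigs for the 36 pairs of the 9 genes, as a coloured matrix with r written in each cell. FOXO1, FOXO3, TRIM63, SQSTM1, MAP1LC3B and GABARAPL1 form a block from 0.68 to 0.93 (0.40 to 0.90 with depth class means removed), and the FBXO40 cells are at or below 0.

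The correlations were recomputed with the breeding groups and the depths taken out. On deviations from the breeding group means 16 pairs passed, and with RLE scaling 17 did. The group means changed which pairs passed. Without them ULK1 and MAP1LC3B (permutation, adjusted p = 0.0504) and SQSTM1 and MAP1LC3B (adjusted 0.0624) missed the limit. FBXO32 and SQSTM1 then passed it (permutation, adjusted p = 0.0369). On deviations from the depth class means 12 pairs passed. FOXO1 and FOXO3 were then at r = 0.90 (permutation, adjusted p = 0.00324) and FOXO3 and MAP1LC3B at r = 0.89 (adjusted 0.00324), whereas TRIM63 and GABARAPL1 dropped from r = 0.71 to 0.40 (adjusted 0.284) and TRIM63 and FOXO1 from 0.78 to 0.66 (adjusted 0.0586). ULK1 and GABARAPL1 went from r = 0.55 to 0.76 (permutation, adjusted p = 0.0306).

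**Figure D4:**
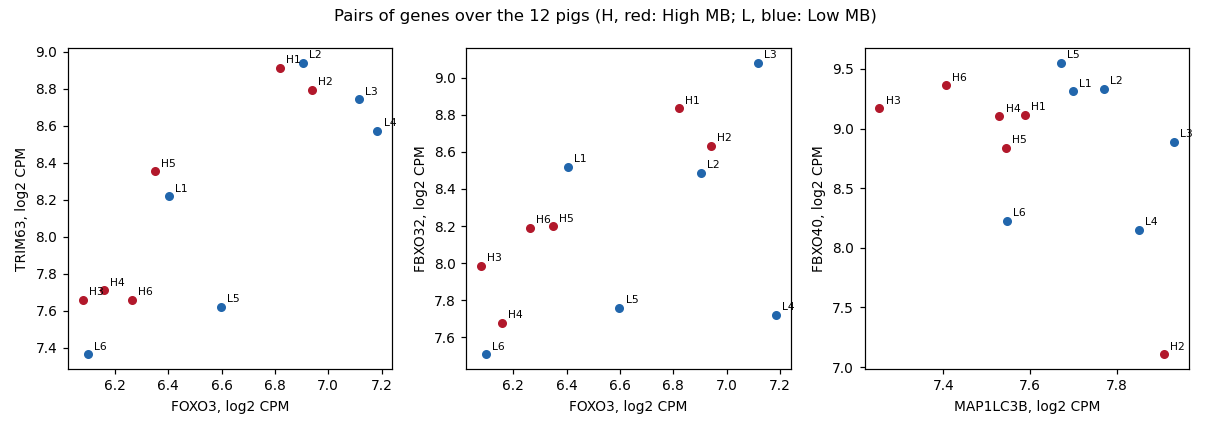
Log2 CPM of TRIM63 and of FBXO32 against FOXO3, and of FBXO40 against MAP1LC3B, with 1 labelled point per pig, High MB in red and Low MB in blue. TRIM63 is higher where FOXO3 is higher (r = 0.83), FBXO32 less closely so (r = 0.53), and High MB 2 lies alone at the bottom of the FBXO40 panel.

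The correlations were set beside those with all other genes. An r of at least 0.7 with FOXO3 was reached by 5.09% of the other 13372 genes and by 5 of the other 8 genes of the set. The share of all other genes was 2.27% for FOXO1, 2.85% for TRIM63, 3.34% for SQSTM1, 4.47% for MAP1LC3B and 4.45% for GABARAPL1, with 5 of the other 8 genes of the set for each. It was 0.703% for FBXO32, 1.03% for ULK1 and 6.85% for FBXO40, with 1, 1 and 0 of the other 8 genes of the set. Among genes with a mean of at least 5 CPM, those most like FBXO32 were CIAO2A (r = 0.87), HBP1 (0.82), MSRB1 (0.81), HEXIM1 (0.80) and COPG1 (0.80). Closest to TRIM63 were ABHD4 (r = 0.95), KLF9 (0.92), ATP7A (0.91), UTP11 (0.91) and PHTF1 (0.91). KLF9 is a transcription factor induced by glucocorticoids. MAP1LC3B was most like TTC17 (r = 0.95), GPR155 (0.94), WDR36 (0.92), PSMD11 (0.92) and CD164 (0.92). For FOXO3, looked up after the values were seen, the closest genes were DNAJB9 and FOXO1 (both r = 0.93).

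The wider pathways were described with 6 lists of genes. Of the 85 listed genes that were tested, 72 were lower and 13 higher in High MB pigs, with a median log2 fold change of -0.13, and 0 passed both limits. Of all genes tested 53.1% were lower, with a median of -0.02, and the listed genes cannot be taken as independent of one another. At an unadjusted p under 0.05 there were 5 genes (5.88%), of which 4 were lower, against 3.13% of all genes, and 1 was higher, against 5.33% of all genes.

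Of the genes that start autophagy and form its first membranes, 14 of 15 were lower, with a median of -0.13, and 0 passed at the unadjusted limit. The smallest p was that of BECN1, the beclin subunit of the lipid kinase complex (log2 fold change -0.20, edgeR adjusted p = 0.607). Of the ATG8 conjugation genes 11 of 13 were lower (median -0.12), with ATG5, part of the enzyme that attaches ATG8 proteins to lipid, at -0.29 (edgeR adjusted p = 0.587). Of the lysosome genes 9 of 10 were lower (median -0.12), and MITF, a transcription factor of lysosomal genes, was at -0.28 (edgeR adjusted p = 0.653, with -0.093 in deep and -0.35 in standard libraries). In none of these 3 lists did a gene reach the unadjusted limit.

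Of the autophagy receptors, 10 of 11 were lower (median -0.12), and NBR1, a ubiquitin-binding receptor related to SQSTM1, passed the unadjusted limit. NBR1 was at 112, 125 and 141 CPM (lowest, median and highest) in High MB pigs and at 113, 162 and 168 CPM in Low MB pigs. The ranges overlapped, and the log2 fold change was -0.26 (SE 0.12, edgeR adjusted p = 0.578), with -0.14 in deep and -0.35 in standard libraries.

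Among the further ubiquitin ligases and their partners, 20 of 21 had a row and 16 of those were lower (median -0.17). UBE4B, which lengthens ubiquitin chains, was at 32.8 ± 6.32 CPM (SD, n = 6) in High MB pigs and 43.0 ± 6.94 CPM (SD, n = 6) in Low MB pigs, a log2 fold change of -0.39 (SE 0.14, edgeR adjusted p = 0.563), with -0.23 in deep and -0.52 in standard libraries. MDM2, the ligase of p53, was at 78.1 ± 10.9 and 95.5 ± 10.2 CPM in the same order, a log2 fold change of -0.29 (SE 0.11, edgeR adjusted p = 0.563), with -0.20 in deep and -0.31 in standard ones. Both missed the adjusted limit.

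In the FOXO list, SGK1 was higher and IRS2 lower at the unadjusted limit. SGK1, a kinase that phosphorylates FOXO factors and keeps them out of the nucleus, was at 11.06, 15.4 and 26.4 CPM (lowest, median and highest) in High MB pigs and at 7.79, 10.6 and 12.7 CPM in Low MB pigs. Its log2 fold change was 0.72 (SE 0.21, edgeR adjusted p = 0.563), with 0.46 in deep and 0.89 in standard libraries taken alone. IRS2, an insulin receptor substrate and known FOXO target, was at 10.3 ± 2.36 CPM (SD, n = 6) in High MB pigs and 14.6 ± 3.92 CPM (SD, n = 6) in Low MB pigs, a log2 fold change of -0.50 (SE 0.20, edgeR adjusted p = 0.563), with -0.24 in deep and -0.68 in standard libraries. In all, 12 of the 16 genes of the list were lower, with a median of -0.13.

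Markers of most other cell types had positive fitted differences. All 5 macrophage markers were higher in High MB pigs (median log2 fold change 0.98, 4 with an unadjusted p under 0.05), with a summed level of 31.6 to 91.0 CPM in High MB and 19.2 to 39.5 CPM in Low MB pigs. The 5 fibroblast markers (median 0.67, 3 at the unadjusted limit) summed to 327 to 599 and 200 to 417 CPM in the same order, and the 5 adipocyte markers (median 0.90, 2 at the limit) to 55.3 to 228 and 35.8 to 199 CPM. The 2 tested red blood cell markers had a median of 0.75 and both reached the limit. The defining markers AHSP and SLC4A1 were at 0 in at least 1 pig and under the filter. Endothelial markers had a median of 0.26, T cell markers 0.35, satellite cell markers -0.31 and muscle fibre markers -0.10, with 0 at the limit in each. At the same unadjusted limit 5.33% of all genes were higher in High MB pigs. Within the depth sets the macrophage marker CD68 was at -0.23 in deep and 0.56 in standard libraries, and the other macrophage markers were positive in both. None of the cell type markers passed both limits. The part of these cells in the lower medians of the pathway lists was not tested.

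**Figure D5:**
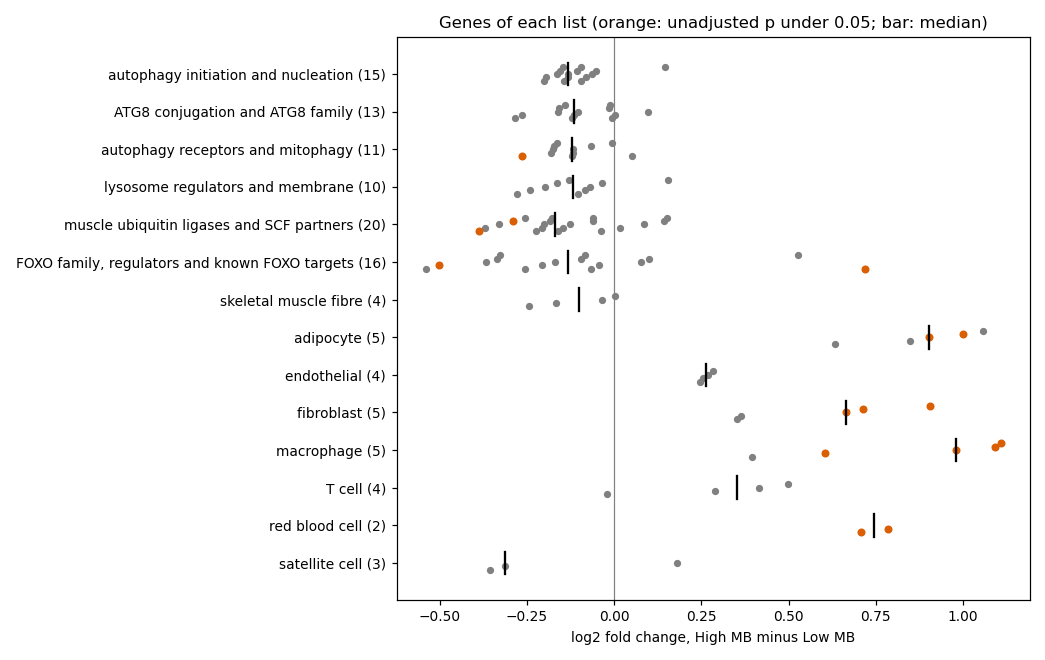
Log2 fold change of High MB minus Low MB for each tested gene of the 6 pathway lists and the 8 marker lists, 1 point per gene, orange where the unadjusted p is under 0.05, with the median of each list as a bar. The 6 pathway medians lie between -0.17 and -0.12, whereas those of the adipocyte, fibroblast and macrophage markers lie between 0.67 and 0.98.

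Within a breeding group, no relation of these genes with the measured myoglobin content passed its test. Of 18 relations (9 genes in each group of 6 pigs), 0 had a Pearson p under 0.05 in an exact permutation test of the pairings. The values of r ran from -0.33 for SQSTM1 in High MB pigs to 0.75 for MAP1LC3B in Low MB pigs (exact permutation p = 0.0903, adjusted over the 18 relations 0.870), where rho was 0.66 (exact permutation p = 0.175, adjusted 0.839). In High MB pigs the r of MAP1LC3B was 0.25 (exact permutation p = 0.654, adjusted 0.943) and rho 0.37 (exact permutation p = 0.497, adjusted 0.895). With 6 pigs a group, a relation that did not pass is not shown to be absent.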

How the data were processed

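RNA was extracted from the longissimus dorsi of 12 pigs and sequenced as paired reads, with 1 library per pig. Per the labels, the authors ran FastQC and Trim Galore, aligned reads to Sscrofa11.1 with HISAT2 and counted them with HTSeq. They deposited raw counts per gene, without normalization. The tool versions, annotation release and strand setting are not given in the sources used here. The transcript tables were not used. The 5 summary lines of the counter were left out, and 47.0% to 48.2% of uniquely aligned reads were assigned to a gene.

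Gene symbols came from a table of pig Ensembl identifiers, and gene coordinates and exon lengths from RefSeq. The members and gene lists were chosen with earlier results of these data known. Counts were tested with edgeR 4.0.16 (TMM, filterByExpr, quasi-likelihood test) in R 4.3.3 over all genes, High MB minus Low MB, with no covariate. Log2 CPM used a prior count of 2. A called gene had an adjusted p under 0.10 and a log2 fold change of more than 0.58 either way. DESeq2 1.42.0 was an alternative. Exact permutation tests covered all splits of the pigs into 6 and 6, adjusted over all genes tested, and correlations over 12 pigs used random permutations. BNIP3 had no row, so 36 pairs and 18 relations were tested. In simulated counts for the same comparison, over 13373 genes, edgeR called 80 of 100 genes changed 2-fold and 96 of 100 changed 4-fold. In the measured counts the adipocyte marker FABP4, at a log2 fold change of 1.00 (SE 0.32), was not called (edgeR adjusted p = 0.563). The simulated rates therefore do not give the chance that a 2-fold change in the genes described would have been called.

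Named were the 9 genes, the genes of each list with the smallest p (at most 3 under an unadjusted p of 0.05), the 5 genes most like FBXO32, TRIM63 and MAP1LC3B, and the highest and lowest level per kilobase. HCLS1, MRNIP and the genes most like FOXO3 were added after the values were seen. Alternatives were RLE scaling, DESeq2, no low-count filter, a prior count of 0.5, the depth class as a covariate or taken alone, the individual number as a block, and each pig left out.

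As a check for a library deposited under 2 labels, pigs of a group were compared in pairs. The chi-square per degree of freedom was at least 61.7, where a repeated library would give about 1. This says nothing of how alike separate pigs are.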

Additional observations from a re-analysis of the deposited data

Results flagged for a closer look

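GABARAPL1 in High MB pigs had 1 pig far from the others. High MB 2 was at 52.8 CPM and the next pig at 30.3 CPM, a gap of 0.687 of the group's range. Of 18 groups of 6 pigs (9 genes in 2 groups) this was the only one past Dixon's 95% limit on CPM, which chance passes in about 1 of 20 groups. The flag may depend on the scale. On log2 CPM, High MB 2 was at 5.72 for GABARAPL1 with the next High MB pig at 4.92, and at 7.11 for FBXO40 with the next at 8.84. The same pig held the lowest FBXO40 level of the 12. Its TMM factor was 1.21, against 0.891 to 1.03 in the other 11 libraries. No explanation was tested.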

How the results depend on the processing

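With every alternative, 0 of the 9 genes were called. Over all genes the count of called genes was 0 with edgeR, 29 with DESeq2 and 1 in the deep libraries only, and 0 to 0 with each pig left out. The median log2 fold change of the 9 genes was -0.26 to -0.14 with each pig left out. The log2 fold changes of FOXO1, FOXO3, ULK1, SQSTM1 and MAP1LC3B were negative in all 20 alternatives each, but their size moved with single pigs. With each pig left out they ran from -0.62 to -0.29, -0.40 to -0.18, -0.28 to -0.12, -0.26 to -0.13 and -0.26 to -0.14 in that order. FBXO32 turned to -0.063 with the depth class as a covariate, -0.12 without High MB 2 and Low MB 4 together and -0.073 in the standard libraries only, and ran from -0.12 to 0.26 with each pig left out. FBXO40 turned to 0.020 without High MB 2 and Low MB 4 together and to 0.14 in the deep libraries only, and ran from -0.19 to 0.14 with each pig left out. TRIM63 ran from -0.24 to 0.10 and GABARAPL1 from -0.36 to 0.061 with each pig left out. The cause was not tested. At an unadjusted p under 0.05, ULK1 and MAP1LC3B passed without High MB 2 and again without High MB 2 and Low MB 4 together, FOXO1 passed without Low MB 6 and in the standard libraries only, and FOXO1 and FOXO3 passed with the depth class as a covariate. The smallest edgeR adjusted p of the 9 genes in these fits was 0.406 to 0.768. Individual numbers did not pair the pigs (correlations of -0.21 to 0.14), and with the replicate block 0 genes were called and the median of the 9 genes was -0.18. FOXO1 had the fewest counts of the 9 genes, at 312 to 1080 per pig.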
